A study of Mus musculus with 22 samples.

Results

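The genes described here were Trp53, which encodes the transcription factor p53, and 9 genes that p53 binds and activates: Mdm2, Ccng1, Trp53inp1, Phlda3, Sesn1, Zmat3, Ei24, Aen and Btg2. They were picked by symbol from the normalized count table, which held all 10 of them among its 11208 genes, and the rule that picks them uses no measured value. RNA was sequenced from NIH/3T3 cells, an immortal line of mouse embryo fibroblasts, in 22 libraries that formed 11 groups of 2. The question behind the design was which genes E2F1, a transcription factor of the G1/S transition, engages when resting cells return to the cycle. One line (E2F1) carried a stably integrated E2F1 construct under doxycycline control, and the other (EV) carried the empty vector. All groups shared 48 h of starvation in 0.25% serum. The E2F1 line was collected at 0 h and after 2, 6 and 12 h of 500 ng/ml doxycycline. The EV line was collected at 0 h, after 2, 6 and 12 h of the same doxycycline dose, and after 2, 6 and 12 h of 10% serum. Both stimuli of the EV line therefore shared the same 0 h libraries. Whether either line was 1 clone, and the species of the E2F1 insert, are not given in the sources used here.

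p53 is held low in unstressed cells by Mdm2, a ubiquitin ligase that p53 itself induces, so the pair forms a negative feedback loop. When DNA damage or oncogene activity blocks Mdm2, the p53 protein accumulates, binds paired half-sites in its target genes and activates genes for cell cycle arrest, repair, metabolism and cell death. This control acts mainly on the protein, which RNA libraries do not measure, and several target genes also answer to other factors, such as FoxO proteins in starved cells and serum-activated factors.

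Library totals ran from 34014608 to 46057140 normalized counts, and the 10 genes held between 0.0915% and 0.141% of them. All 11 fibroblast markers that were looked for were in the table, with sums from 690769 to 1414946, while none of 6 epithelial, 3 endothelial and 3 leukocyte markers was among its genes. E2f1 itself, as counted by the authors, held 1703 and 1637 counts in the E2F1 line before doxycycline, 1535 and 1755 with 2 h of it, 3806 and 3602 with 6 h, and 2683 and 2845 with 12 h, so it was not raised at 2 h. In the EV line E2f1 held 1635 and 1655 at 0 h and from 1307 to 1635 with doxycycline. Serum gave 802 and 740 at 2 h, 1186 and 956 at 6 h, and 4615 and 4247 at 12 h. Both serum 12 h libraries were above every library of the E2F1 line. Whether these counts include transcripts of the insert is not given in the sources used here. The 2 h doxycycline libraries stood apart from their lines. There were 13 genes that the E2F1 line held at 8-fold or more over the EV line at the other times, and 12 of them were above all other EV doxycycline libraries in both EV 2 h libraries, and 5 were below all other E2F1 libraries in both E2F1 2 h libraries. One of them, Ddx3y, stood at 9 and 4 in EV 0 h, 103 and 71 in EV 2 h doxycycline and 329 and 316 in E2F1 2 h, against 415 to 580 in the other E2F1 libraries. Serum libraries of the EV line were raised too, at 132 and 170 after 2 h, 48 and 35 after 6 h and 29 and 19 after 12 h. Whether cells or RNA of the lines were mixed in these libraries was not tested. The 2 h results of either stimulus cannot be given without these libraries, because both libraries of each group are concerned.

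Promoter sequence is shown for 3 of the genes because their windows hold a motif of p53 or of a stimulus-responsive factor: Trp53 and Aen hold the core letters of a p53 half-site pair close to a start site, and Btg2 holds a TGACGTCA element of the kind bound by CREB and ATF proteins. Sequences are the 250 bases before the RefSeq start (GRCm38.p6), read 5′ to 3′ on the gene's strand, with the motif in capitals. The Trp53 window is chr11:69580109-69580358 on the plus strand, with its match 72 to 59 bases before the start.
Trp53: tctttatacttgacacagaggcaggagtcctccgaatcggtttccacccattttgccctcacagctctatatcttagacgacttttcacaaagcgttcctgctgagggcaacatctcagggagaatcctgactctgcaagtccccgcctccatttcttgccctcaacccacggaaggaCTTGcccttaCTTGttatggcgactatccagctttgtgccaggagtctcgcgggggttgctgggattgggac
Aen is shown for 30 bases only, chr7:78895932-78895961 on the plus strand, with its match 118 to 105 bases before one of its RefSeq starts. The match lies after the other RefSeq start of Aen and inside the gene as GENCODE annotates it, which begins at chr7:78895854.
Aen: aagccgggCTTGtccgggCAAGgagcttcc
The Btg2 window is chr1:134079156-134079405 on the minus strand, with TGACGTCA 166 to 159 bases before the start.
Btg2: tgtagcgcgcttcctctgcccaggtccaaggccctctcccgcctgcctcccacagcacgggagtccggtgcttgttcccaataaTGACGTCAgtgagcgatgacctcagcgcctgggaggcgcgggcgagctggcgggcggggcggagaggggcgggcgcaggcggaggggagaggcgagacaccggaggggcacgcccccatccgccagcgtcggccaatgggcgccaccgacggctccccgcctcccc

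The RefSeq table had windows for 8 of the 10 genes, 10 windows in all, without Trp53inp1 and Zmat3. The p53 core pair was searched as a first core (either CATG or the core CAAG or the core CTTG or the core CTAG), then 6 bases, then a second core of these, a set that reads the same on both strands. It was in 5.84% of all 32851 windows. TGACGTCA was in 1.55% of them and, among the 10 genes, in Btg2 alone. GTAAACA, a FoxO-type element, was in 3.17% of windows and in Mdm2 alone of these genes, 153 to 147 bases before the start. CACGTG was in 6.02% of windows and in Aen. The E2F forms TTTCGCGC, TTTGGCGC and TTTCCCGC, in 1.53% of windows, and the AP-1 forms TGAGTCA and TGACTCA, in 4.46%, were in none of the 10 windows. All motifs were searched on both strands, they do not overlap each other in these windows, and a window without a match says only that these letters are not in it.

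The levels of the 10 genes, as normalized counts per kb of exon (exon lengths from GENCODE M21), spanned more than an order of magnitude. Averaged over the 11 groups, Phlda3 was highest at 3722 per kb, followed by Ccng1 at 2144 and Trp53 at 1446. Aen, Mdm2, Ei24, Sesn1, Zmat3 and Btg2 followed at 664, 648, 513, 490, 434 and 346 per kb, and Trp53inp1 was lowest at 230 per kb. In starved EV cells the order was Phlda3, Ccng1, Trp53, Sesn1, Mdm2, Ei24, Zmat3, Aen, Btg2 and Trp53inp1. There the 7 highest genes were separated in both libraries from their lower neighbour, except Zmat3, whose libraries overlapped those of Aen (348 ± 25.9 and 319 ± 18 per kb, SD, n = 2). Aen and Btg2, and Btg2 and Trp53inp1, also overlapped.

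**Figure D1:**
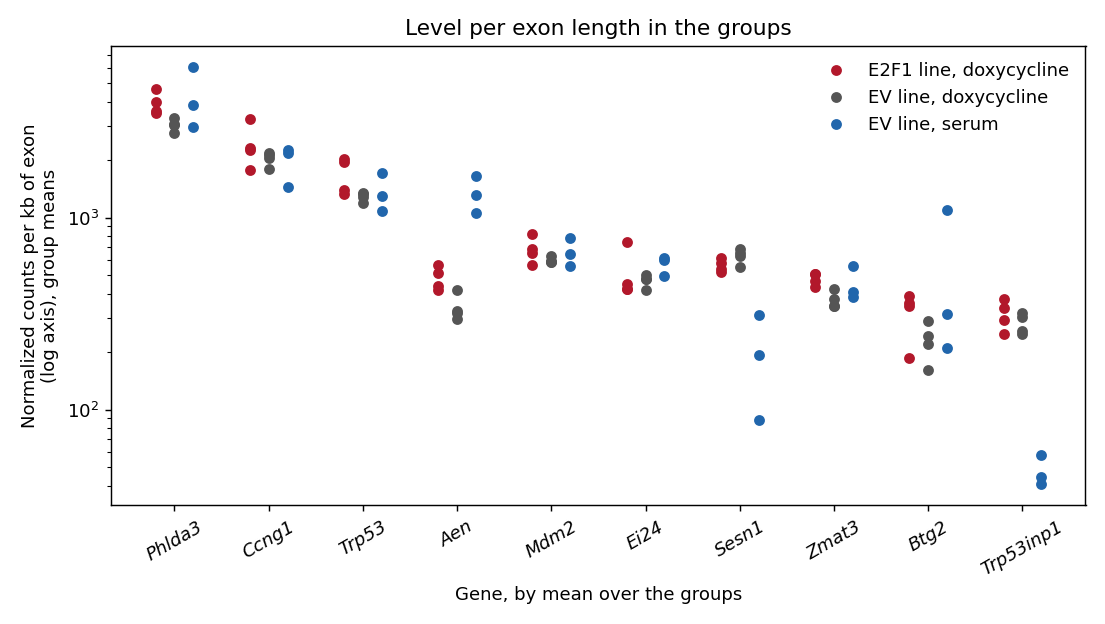
Normalized counts per kb of exon (logarithmic axis) for the 10 genes in the 11 groups; each point is the mean of 1 group (2 libraries). Phlda3 reaches 6109 per kb in a group mean under serum at 2 h, and Trp53inp1 falls to 40.8 per kb under serum at 6 h.

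The genes fell into a wide and a narrow class by how far their group means spread. The highest group mean exceeded the lowest 9.23-fold for Trp53inp1, 7.81-fold for Sesn1, 6.82-fold for Btg2 and 5.51-fold for Aen. For the other 6 the factor was between 1.46 for Mdm2 and 2.27 for Ccng1. Serum groups held the highest or the lowest mean of 9 of the 10 genes, all but Ei24. The highest means of Ccng1, Mdm2 and Ei24 were at 12 h in the E2F1 line and that of Trp53 at 6 h in it.

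**Figure D2:**
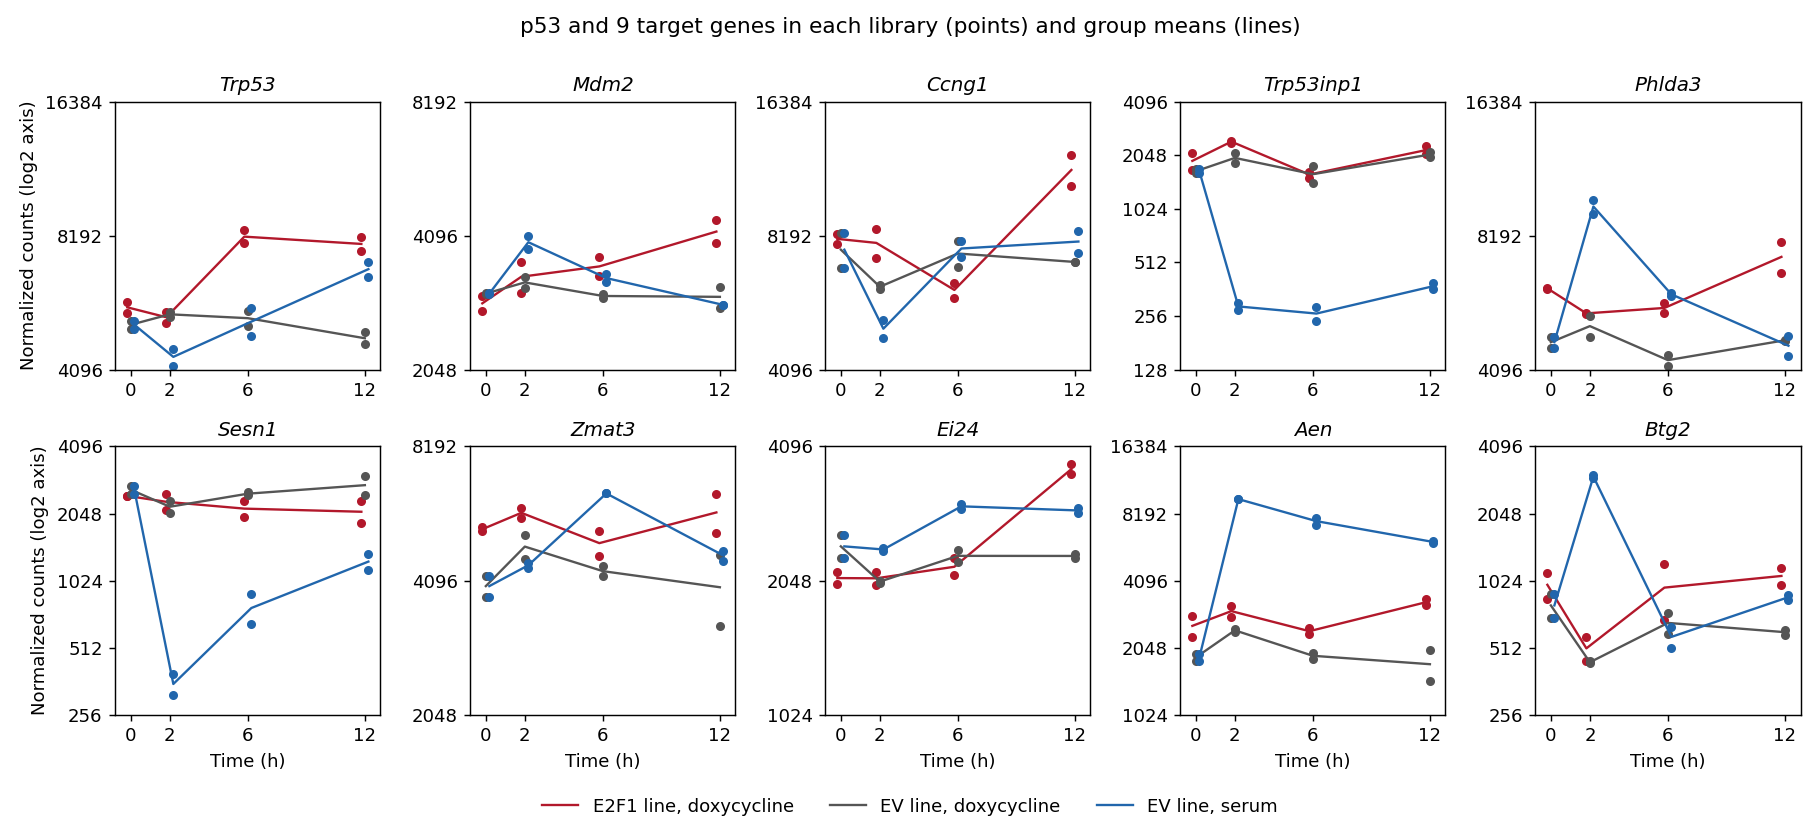
Normalized counts (logarithmic vertical axis, its own range for each gene) against hours after the stimulus for the E2F1 line with doxycycline, the EV line with doxycycline and the EV line with serum; points are libraries, lines join group means, and the serum course starts from the EV 0 h libraries. Trp53, Mdm2, Ccng1 and Ei24 stand highest or near highest in the E2F1 line at 12 h, and Trp53inp1 and Sesn1 drop under serum.

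Trp53 rose in the E2F1 line at 6 and 12 h, and under serum it fell at 2 h and rose at 12 h. The gene (ENSMUSG00000059552.13) lies at chr11:69580359-69591873 on the plus strand of GRCm38, and a pseudogene, Trp53-ps, is also annotated, so the share of reads from each is uncertain. In the E2F1 line the libraries held 5809 and 5501 at 0 h, 5214 and 5532 at 2 h, 8418 and 7882 at 6 h, and 7575 and 8122 at 12 h. Both later groups lay wholly above 0 h, by 0.53 ± 0.08 (log2 change ± SE) at 6 h and 0.47 ± 0.08 at 12 h (limma, adjusted p = 3.25e-05 and 6.88e-05). In the EV line with doxycycline the values were 5277 and 5059 at 0 h, 5383 and 5526 at 2 h, 5148 and 5545 at 6 h, and 4972 and 4667 at 12 h, and no time point passed the test. Under serum they were 4569 and 4185 at 2 h, 5623 and 4883 at 6 h, and 7164 and 6615 at 12 h. Trp53 fell by 0.24 at 2 h (adjusted p = 0.0134), did not pass at 6 h (0.02, adjusted p = 0.838) and by 12 h rose 0.41 ± 0.08 (adjusted p = 0.000232). The fall at 2 h was lost without EV 0 h replicate 1 (-0.21, adjusted p = 0.0766) and without serum 2 h replicate 2 (-0.18, adjusted p = 0.131).

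Mdm2, the ligase that degrades p53, had the smallest ratio of highest to lowest group mean of the 10 genes, but in the E2F1 line at 12 h its log2 change was second to that of Ei24. It (ENSMUSG00000020184.15) lies at chr10:117688875-117710758 on the minus strand. In the E2F1 line it stood at 2995 and 2778 at 0 h, 3045 and 3579 at 2 h, 3664 and 3323 at 6 h, and 4432 and 3935 at 12 h. Both 12 h libraries were above all others of that line. The change was 0.27 ± 0.09 at 6 h and 0.53 ± 0.09 at 12 h (limma, adjusted p = 0.0157 and 4.94e-05). At 6 h the call was lost without E2F1 0 h replicate 2 (0.22, adjusted p = 0.122), without E2F1 6 h replicate 1 (0.20, adjusted p = 0.148), after quantile normalization (0.07, adjusted p = 0.488) and after scaling to equal totals (0.16, adjusted p = 0.142). In the EV line Mdm2 held 3038 and 3034 at 0 h and stayed between 2821 and 3312 with doxycycline. Serum gave 4094 and 3825 at 2 h, 3360 and 3218 at 6 h, and 2861 and 2865 at 12 h, an early rise of 0.38 (adjusted p = 0.000877) that did not pass at the later times. That early rise was 0.04 (adjusted p = 0.688) after quantile normalization and 0.01 (adjusted p = 0.943) with equal totals, settings that moved the median of all genes by -0.08 and -0.37.

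After 12 h of E2F1 induction 6 of the 10 genes passed the test, all of them upward: Ei24, Mdm2, Ccng1, Trp53, Aen and Phlda3. Of all genes tested in that comparison 61.5% were called, 31.8% upward and 29.7% downward, so most of the table had moved by then. The median log2 change of the 10 genes was 0.30, against -0.02 for all genes. After quantile normalization 4 of them passed upward and Sesn1 downward (-0.40, limma adjusted p = 0.0318). Of all genes 3129 were then called upward and 4119 downward. With equal totals 5 passed, all upward, where 3280 of all genes were called upward and 3775 downward. At 6 h 3 of 10 passed, Trp53 and Mdm2 upward and Ccng1 downward, where 51.7% of all genes were called (28.8% upward, 22.9% downward) and the median was -0.10 against -0.03. Quantile normalization called 1 of the 10 upward and 5 downward at 6 h, and 2660 of all genes upward and 3821 downward. Equal totals called 1 upward and 3 downward, and 2683 of all genes upward and 3781 downward. At 2 h 1 of the 10 passed, Btg2, downward, where 1.86% of all genes were called.

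Ei24, an endoplasmic reticulum membrane protein linked to autophagy and growth suppression, had the highest log2 change of the 10 genes in the E2F1 line at 12 h. It (ENSMUSG00000062762.17) lies at chr9:36779159-36797393 on the minus strand, and the exons of an antisense gene, Gm26787, overlap it. Since the use of strand in the counting is not given, its reads cannot be told apart from those of Gm26787. The E2F1 libraries held 2142 and 2007 at 0 h, 2144 and 2000 at 2 h, 2103 and 2296 at 6 h, and 3547 and 3742 at 12 h. Both 12 h libraries stood above every other library of the study, and the change from 0 h was 0.81 ± 0.08 (adjusted p = 7.26e-08). In the EV line with doxycycline Ei24 ran from 2027 to 2394 after 0 h values of 2298 and 2590. With serum it held 2387 and 2423 at 2 h, 2964 and 3048 at 6 h, and 2979 and 2906 at 12 h, which is a rise of 0.30 by 6 h and of 0.27 by 12 h (adjusted p = 0.00234 and 0.00544). The serum rises depended on the scaling. After quantile normalization they were 0.10 and 0.12 (limma, adjusted p = 0.291 and 0.195). With equal totals the 6 h rise was 0.09 (adjusted p = 0.339), while the 12 h rise kept its call. Without EV 0 h replicate 1 the 12 h rise was 0.18.

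Ccng1, which encodes cyclin G1, a partner of the phosphatase PP2A that acts on Mdm2, fell and then rose in the E2F1 line. It (ENSMUSG00000020326.7) lies at chr11:40748552-40755311 on the minus strand. Its E2F1 libraries held 7864 and 8250 at 0 h, 7309 and 8472 at 2 h, 5947 and 6426 at 6 h, and 12432 and 10578 at 12 h. The 6 h libraries were below and the 12 h libraries above all others of the line, by -0.38 ± 0.10 and 0.51 ± 0.10 from 0 h (adjusted p = 0.00531 and 0.000365). The step from 6 to 12 h was 0.89 ± 0.10 (adjusted p = 1.03e-05). Without E2F1 6 h replicate 1 the 6 h change was -0.33 (adjusted p = 0.0556). The EV doxycycline libraries ran from 6223 to 7985 against 6943 and 8295 at 0 h. Serum gave 5297 and 4830 at 2 h, 7348 and 7982 at 6 h, and 7498 and 8394 at 12 h, so that Ccng1 fell by 0.59 at 2 h (adjusted p = 6.32e-05) and was back in the range of the 0 h libraries or close to it afterwards.

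Aen, an exonuclease that promotes apoptosis, and Phlda3, a pleckstrin homology protein that restrains Akt, rose modestly in the E2F1 line at 12 h. Aen (ENSMUSG00000030609.18, chr7:78895854-78911209, plus strand) held 2831 and 2297 at 0 h, 2818 and 3155 at 2 h, 2501 and 2353 at 6 h, and 3369 and 3187 at 12 h in that line. Phlda3 (ENSMUSG00000041801.5, chr1:135766119-135769136, plus strand) held 6244 and 6232, 5488 and 5474, 5505 and 5769, and 6752 and 7929 at the same times. Its 6 h change did not pass limma (-0.15, adjusted p = 0.145). It was called downward after quantile normalization (-0.44, adjusted p = 0.000558) and with equal totals (-0.26, adjusted p = 0.0149). In both genes the 12 h libraries lay above the 0 h libraries, with changes of 0.36 ± 0.12 for Aen and 0.23 ± 0.08 for Phlda3 (adjusted p = 0.0134 and 0.0216). The Aen call was lost without E2F1 0 h replicate 2 (0.21, adjusted p = 0.206), without 12 h replicate 1 (0.32, adjusted p = 0.0805) and after quantile normalization (0.21, adjusted p = 0.142). The Phlda3 call was lost without either 0 h replicate (adjusted p = 0.0699 and 0.0753) or 12 h replicate 2 (0.11, adjusted p = 0.302), after quantile normalization (0.02, adjusted p = 0.858) and with equal totals (0.17, adjusted p = 0.0909).

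Trp53inp1, Sesn1, Zmat3 and Btg2 did not pass the test at 6 or 12 h of E2F1 induction. After quantile normalization Trp53inp1 (-0.41, limma adjusted p = 0.0124), Sesn1 (-0.38, adjusted p = 0.0433) and Zmat3 (-0.35, adjusted p = 0.02) were called lower at 6 h. In that setting Sesn1 was called lower at 12 h too (-0.40, adjusted p = 0.0318). With equal totals Trp53inp1 was called lower at 6 h (-0.36, adjusted p = 0.0176). Its 12 h change was 0.36 without E2F1 0 h replicate 2. Trp53inp1, a nuclear stress protein that also takes part in autophagy (ENSMUSG00000028211.11, chr4:11156431-11174379, plus strand), held 1699 and 2107 at 0 h, 2413 and 2468 at 2 h, 1532 and 1658 at 6 h, and 2307 and 2074 at 12 h. Sesn1, a sestrin that restrains the growth kinase mTORC1 (ENSMUSG00000038332.13, chr10:41809935-41908424, plus strand), held 2456 and 2460, 2494 and 2129, 1971 and 2338, and 1851 and 2321. Their 12 h changes were 0.21 (95% interval -0.06 to 0.48) and -0.25 (-0.57 to 0.08), with adjusted p of 0.164 and 0.175. Zmat3, an RNA-binding zinc finger protein and splicing regulator (ENSMUSG00000027663.12, chr3:32334792-32366014, minus strand), held 5399 and 5284 at 0 h, 5664 and 5964 at 2 h, 5281 and 4660 at 6 h, and 6402 and 5249 at 12 h. Its 12 h libraries straddled the 0 h values, with a change of 0.12 (-0.15 to 0.39, adjusted p = 0.437).

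Btg2, an antiproliferative factor that recruits the CCR4-NOT deadenylase and is known as an immediate early gene, was the 1 gene of the 10 called after 2 h of doxycycline in the E2F1 line, where E2f1 was not raised. It (ENSMUSG00000020423.6) lies at chr1:134075170-134079120 on the minus strand. The E2F1 libraries held 847 and 1113 at 0 h, 447 and 569 at 2 h, 1220 and 684 at 6 h, and 1168 and 980 at 12 h. Both 2 h libraries were below all others of the line, and Btg2 fell by 0.94 ± 0.21 (adjusted p = 0.0276). In the EV line its values were 697 and 887 at 0 h but 435 and 445 with 2 h of doxycycline, so that it fell there by 0.84 ± 0.21 (adjusted p = 0.0221). The difference between these changes was -0.11 (adjusted p = 0.978). The E2F1 call was lost without 0 h replicate 2 (-0.75, adjusted p = 0.342), without 2 h replicate 1 (-0.77, adjusted p = 0.247) and without 2 h replicate 2 (-1.12, adjusted p = 0.0721), and the EV call without EV 0 h replicate 2 (-0.66, adjusted p = 0.158) or either 2 h replicate (adjusted p = 0.101 and 0.127).

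Doxycycline in the EV line, the background of the induction, changed 3 of the 10 genes at 2 h and none at 6 or 12 h. At 2 h, where 7.35% of all genes were called, Aen rose by 0.40 (2489 and 2408 against 1925 and 1777, adjusted p = 0.0454), Btg2 fell as given above, and Ei24 fell by 0.26 (2047 and 2027 against 2298 and 2590, adjusted p = 0.0496). These EV 2 h libraries carry raised counts of genes of the E2F1 line. Their Ddx3y stood at 103 and 71, against 9 and 4 in EV 0 h and 580 and 521 in E2F1 0 h. Their mean of Aen (2449) lay between those of EV 0 h (1851) and E2F1 0 h (2564). Their mean of Ei24 (2037) lay below both (2444 and 2075). Whether the 2 changes come from doxycycline or from material of the other line was not tested. The Aen call was lost when any 1 of the 4 libraries was left out, with adjusted p between 0.08 and 0.203, and that of Ei24 without EV 0 h replicate 2 (-0.17, adjusted p = 0.314), without 2 h replicate 1 (adjusted p = 0.141) or without 2 h replicate 2 (adjusted p = 0.219). At 6 h, where 0.134% of all genes were called, the 10 changes lay between -0.26 and 0.11. At 12 h, where 4.17% were called, they lay between -0.39 for Btg2 and 0.31 for Trp53inp1, whose unadjusted p was 0.0259 (adjusted p = 0.213), and no other of the 10 had an unadjusted p under 0.05. At 6 h no gene of the 10 had one.

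The change in the E2F1 line minus the change in the EV line under doxycycline was called for 5 of the 10 genes at 12 h, all higher in the E2F1 line, where 50.5% of all genes were called and 27.3% were called higher. Ei24 differed by 0.88 ± 0.11 (adjusted p = 3.13e-06), Ccng1 by 0.60 ± 0.15 (adjusted p = 0.00253), Trp53 by 0.57 ± 0.12 (adjusted p = 0.000455), Mdm2 by 0.56 ± 0.13 (adjusted p = 0.00121) and Aen by 0.48 ± 0.17 (adjusted p = 0.0235). The median over the 10 genes was 0.50, against -0.02 for all genes. Btg2, at 0.53 with an interval from -0.10 to 1.16, had an estimate as high as some of these but a wider spread (adjusted p = 0.151). Phlda3 (0.22, adjusted p = 0.134), Zmat3 (0.15, adjusted p = 0.517), Trp53inp1 (-0.10, adjusted p = 0.668) and Sesn1 (-0.31, adjusted p = 0.253) did not pass. At 6 h only Trp53 passed, at 0.48 ± 0.12 (adjusted p = 0.00345), where 34.5% of all genes were called. At 2 h none of the 10 passed with limma, where 0.143% of all genes were called. Of the 10, Phlda3 (-0.31) and Ei24 (0.26) had an unadjusted p under 0.05 there (0.0174 and 0.0307), with adjusted p of 0.485 and 0.574.

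Of these calls, Aen at 12 h and Trp53 at 6 h were lost under some settings. The Aen difference at 12 h was lost without E2F1 0 h replicate 2 (0.33, adjusted p = 0.141), without E2F1 12 h replicate 1 (0.44, adjusted p = 0.0727), without EV 0 h replicate 1 (0.42, adjusted p = 0.0735) and without EV 12 h replicate 2 (0.25, adjusted p = 0.177). It was also lost after quantile normalization (0.33, adjusted p = 0.11), with equal totals (0.41, adjusted p = 0.0539) and when the fit held only those groups (0.48, adjusted p = 0.0777). The Trp53 difference at 6 h was 0.28 (adjusted p = 0.0558) after quantile normalization.

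**Figure D3:**
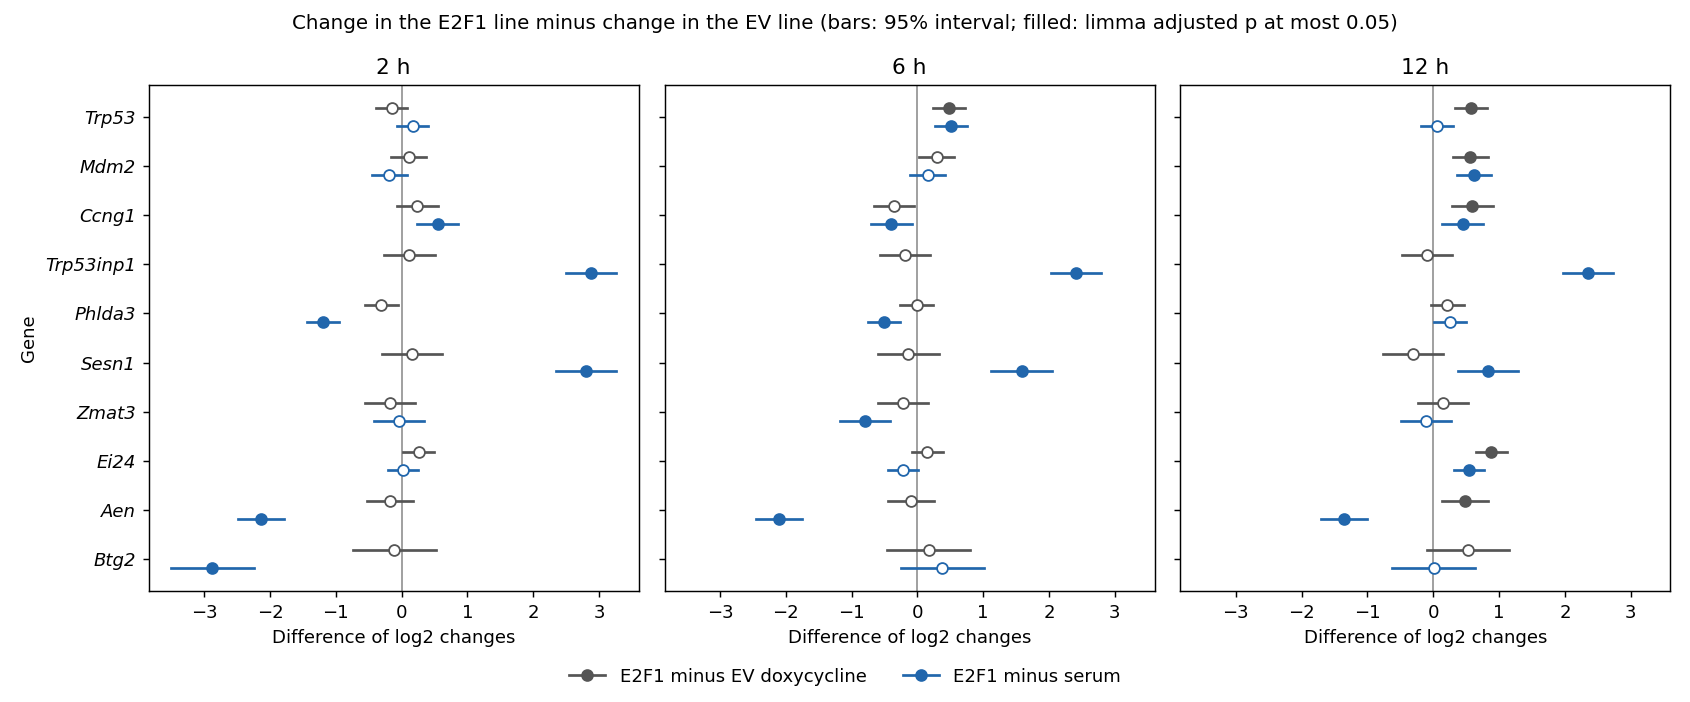
Change in the E2F1 line minus change in the EV line under doxycycline (grey) or serum (blue), as a difference of log2 changes from 0 h, at 2, 6 and 12 h; points are estimates, bars 95% intervals, and filled points passed limma at an adjusted p of 0.05. Grey points for Trp53, Mdm2, Ccng1, Ei24 and Aen are filled at 12 h, and blue points for Trp53inp1 and Sesn1 lie to the right at every time.

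The lines differed before any stimulus, which bears on how the 12 h levels compare. At 0 h 4 of the 10 genes differed between the starved lines, where 15% of all genes were called, 8.86% higher and 6.17% lower in the E2F1 line. Phlda3 was higher in the E2F1 line (6244 and 6232 against 4863 and 4582, 0.40 ± 0.08, adjusted p = 0.00329), as were Aen (2831 and 2297 against 1925 and 1777, 0.46, adjusted p = 0.0143) and Zmat3 (5399 and 5284 against 4190 and 3771, 0.43, adjusted p = 0.032). Ei24 was lower (2142 and 2007 against 2298 and 2590, -0.23, adjusted p = 0.0498). Of these, Phlda3 alone kept its call whichever library was left out: Aen lost it without E2F1 0 h replicate 1 (0.31, adjusted p = 0.192) or EV 0 h replicate 2 (0.41, adjusted p = 0.0837), Zmat3 without any 1 of the 4 (adjusted p from 0.0563 to 0.16), and Ei24 without either E2F1 replicate (adjusted p = 0.0966 and 0.249) or EV 0 h replicate 2 (adjusted p = 0.322). Set side by side at 12 h of doxycycline, without regard to 0 h, 9 of the 10 genes differed between the lines, 8 of them higher in the E2F1 line, where 69.2% of all genes were called, 36.3% higher and 32.8% lower. The level differences at 12 h were 0.94 for Aen, 0.83 for Btg2, 0.70 for Trp53, 0.68 for Ccng1, 0.65 for Ei24, 0.62 for Phlda3, 0.58 for Zmat3, 0.49 for Mdm2 and -0.40 for Sesn1. Phlda3 and Zmat3 were thus higher in the E2F1 line both at 0 h and at 12 h, whereas their changes did not differ past the threshold.

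**Figure D4:**
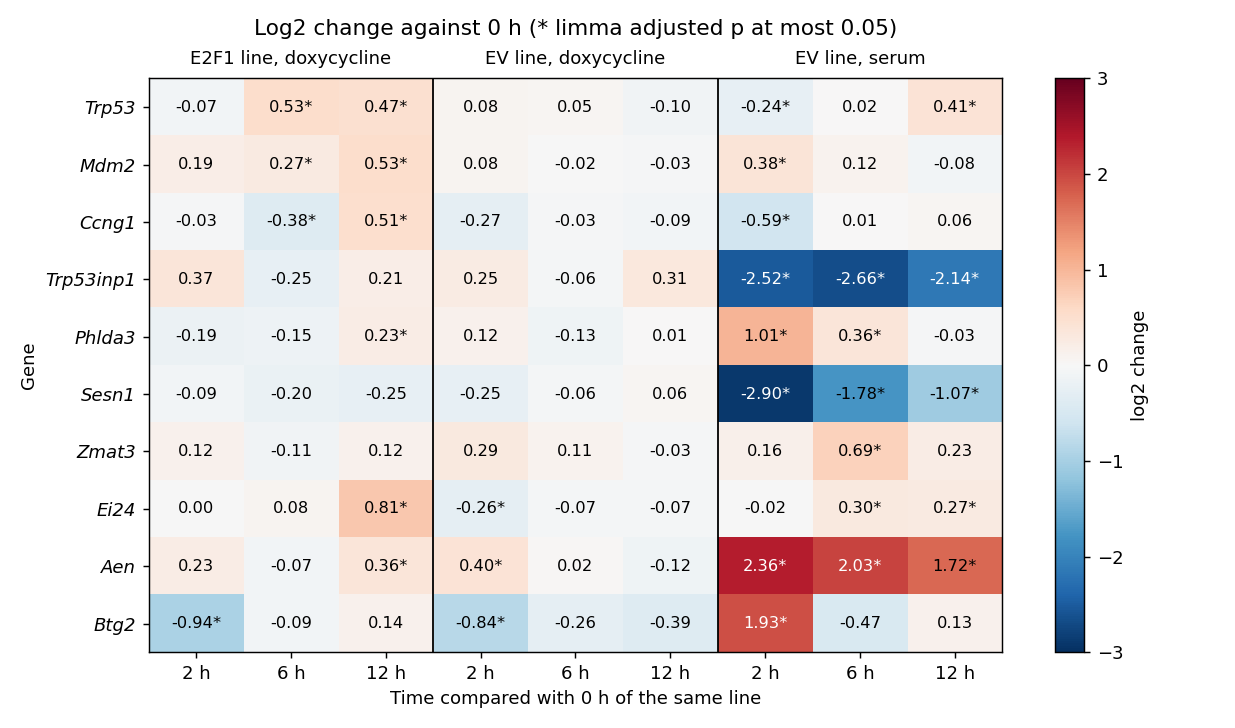
Log2 change from 0 h of the 10 genes (rows) in the E2F1 line with doxycycline, the EV line with doxycycline and the EV line with serum at 2, 6 and 12 h (columns); the number in each cell is the log2 change and an asterisk marks a limma adjusted p of at most 0.05. Serum columns hold the changes of largest size, from -2.90 for Sesn1 to 2.36 for Aen, both at 2 h.

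Serum gave the changes of largest size among the 10 genes, in both directions. At 2 h 8 of the 10 passed, 4 higher and 4 lower, where 70.9% of all genes were called (37.5% higher, 33.5% lower). These serum 2 h libraries also held raised Ddx3y (132 and 170, against 9 and 4 at EV 0 h). At 6 h 6 passed, 4 higher and 2 lower, where 67.5% were called (36.5% higher, 31% lower), and at 12 h 5 passed, 3 higher and 2 lower, where 65.7% were called (36% higher, 29.7% lower). The balance of directions turned with the scaling, though not at 12 h with equal totals. After quantile normalization 3, 2 and 2 genes passed upward at the 3 times and 5, 4 and 4 downward, and with equal totals 3, 2 and 3 passed upward and 5, 3 and 2 downward. Of all genes, equal totals called 2611 upward against 5907 downward after 2 h, 2914 against 4772 after 6 h, and 3591 against 3850 after 12 h. Quantile normalization called 3630 against 4120, 3576 against 3617, and 3595 against 3797 at these times. The medians of the 10 genes at 6 and 12 h, 0.07 and 0.10, lay close to those of all genes, 0.03 and 0.05.

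Aen, the apoptosis-linked nuclease, rose most. From 1925 and 1777 at 0 h it went to 9514 and 9503 at 2 h, 7832 and 7312 at 6 h, and 6166 and 6040 at 12 h. All 6 serum libraries stood above all 16 others of the study, and the changes were 2.36 ± 0.12, 2.03 ± 0.12 and 1.72 ± 0.12 (adjusted p = 6.16e-12, 8.58e-11 and 1.23e-09). The authors' deposited table, whose smallest log2 change by size is near 2, gave Aen 2.37 at 2 h and 2.04 at 6 h. Btg2 rose briefly: its libraries held 697 and 887 at 0 h, 2958 and 3043 at 2 h, 633 and 511 at 6 h, and 885 and 840 at 12 h. The rise at 2 h was 1.93 ± 0.21 (adjusted p = 1.86e-07), and from 2 to 6 h it fell by 2.40 ± 0.21 (adjusted p = 6.01e-08) to values below both 0 h libraries. That 6 h level did not differ past the threshold from 0 h (-0.47, adjusted p = 0.0593). Phlda3, the Akt antagonist, held 4863 and 4582 at 0 h, 9174 and 9873 at 2 h, 6094 and 6001 at 6 h, and 4392 and 4883 at 12 h. It rose by 1.01 ± 0.08 at 2 h (adjusted p = 3.45e-09), stood 0.36 above 0 h at 6 h (adjusted p = 0.000903) and overlapped the 0 h libraries at 12 h. With quantile normalization or equal totals its 6 h change was 0.07 or 0.14 (adjusted p = 0.53 and 0.149). Zmat3 rose later, from 4190 and 3771 at 0 h to 4492 and 4375 at 2 h, 6425 and 6429 at 6 h, and 4543 and 4783 at 12 h. Its change passed the test at 6 h only (0.69 ± 0.13, adjusted p = 0.00011), and the step down from 6 to 12 h was -0.46 (adjusted p = 0.00747), or -0.43 (adjusted p = 0.0529) without serum 12 h replicate 1.

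Sesn1 and Trp53inp1 fell to a small share of their starved level. Trp53inp1 went from 1712 and 1618 at 0 h to 276 and 304 at 2 h, 240 and 289 at 6 h, and 363 and 391 at 12 h. None of the other 16 libraries held fewer than 1423, and the changes were -2.52 ± 0.13, -2.66 ± 0.13 and -2.14 ± 0.13 (adjusted p = 6.78e-12, 9.7e-12 and 2.67e-10). Sesn1 went from 2506 and 2732 to 314 and 389, 891 and 651, and 1344 and 1148. Its changes were -2.90 ± 0.15, -1.78 ± 0.15 and -1.07 ± 0.15 in that order (adjusted p = 1.19e-11, 1.28e-08 and 8.29e-06), with all 6 serum libraries below all 16 others. Sesn1 recovered by 1.12 between 2 and 6 h and by 0.70 between 6 and 12 h, both past the threshold, while Trp53inp1 rose between 6 and 12 h by 0.51. The last of these steps was lost without serum 6 h replicate 1 (0.38, adjusted p = 0.0524). The authors' deposited table gave Trp53inp1 -2.51, -2.65 and -2.12 at the 3 times and Sesn1 -2.89 at 2 h. It listed none of the 10 genes for either line under doxycycline.

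Steps within the courses placed the changes in time. In the E2F1 line between 6 and 12 h, 6 of the 10 genes rose and none fell, where 35.3% of all genes were called, 15.1% higher and 20.2% lower. These were Ccng1 (0.89), Ei24 (0.73), Trp53inp1 (0.46), Aen (0.43), Phlda3 (0.38) and Mdm2 (0.26). Calls of Aen, Mdm2 and Trp53inp1 in that step did not hold against single libraries: without 12 h replicate 1 the adjusted p was 0.062, 0.245 and 0.0883, without 6 h replicate 2 it was 0.0655 for Aen and 0.218 for Mdm2, and without 6 h replicate 1 it was 0.0792 for Trp53inp1. Under serum 9 of the 10 moved between 2 and 6 h, 5 upward and 4 downward, where 48.5% of all genes were called (24.3% in each direction). Between 6 and 12 h 7 moved, 4 upward and 3 downward, where 39.9% were called (19.3% higher, 20.6% lower). Trp53 itself rose by 0.39 in that last serum step (adjusted p = 0.000852). When single libraries were left out, calls were lost for Aen, Mdm2 and Trp53 between 2 and 6 h, with adjusted p up to 0.174, and for Aen, Btg2, Trp53inp1 and Zmat3 between 6 and 12 h, with adjusted p up to 0.208.

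The changes in the E2F1 line and under serum differed for 6 or 7 of the 10 genes at each time. This was close to the share of all genes. Only the EV line received serum, so line and stimulus cannot be told apart in these differences. At 2 h the difference of changes was called for 6 of 10, where 56.7% of all genes were called. At 6 h it was called for 7, where 57.9% were called, and at 12 h for 6, where 48.8% were called. Trp53inp1 differed by 2.89, 2.41 and 2.35 and Sesn1 by 2.81, 1.58 and 0.83 at the 3 times. Both were higher in the E2F1 line than under serum. In the E2F1 line neither gene passed against 0 h (0.37, -0.25 and 0.21 for Trp53inp1, -0.09, -0.20 and -0.25 for Sesn1), while both fell under serum at every time. Aen differed by -2.14, -2.10 and -1.36. Phlda3 differed by -1.20 and -0.50 at 2 and 6 h, Btg2 by -2.87 at 2 h, and Zmat3 by -0.80 at 6 h. At 12 h the changes of Mdm2 (0.62 ± 0.13, adjusted p = 0.000564), Ei24 (0.54 ± 0.11, adjusted p = 0.000538) and Ccng1 (0.45 ± 0.15, adjusted p = 0.0181) were higher in the E2F1 line than under serum. The Ccng1 difference at 12 h was lost without E2F1 0 h replicate 1 (0.41, adjusted p = 0.0604), E2F1 12 h replicate 1 (0.33, adjusted p = 0.101), EV 0 h replicate 2 (0.32, adjusted p = 0.101) or serum 12 h replicate 1 (0.36, adjusted p = 0.0816). Ccng1 differed at the earlier times too, by 0.55 after 2 h (adjusted p = 0.00377) and by -0.39 after 6 h (adjusted p = 0.0286). The latter difference was lost without E2F1 0 h replicate 2 (adjusted p = 0.0821), E2F1 6 h replicate 1 (adjusted p = 0.0979), EV 0 h replicate 1 (adjusted p = 0.153) or serum 6 h replicate 2 (adjusted p = 0.0928). For Trp53 the change was higher in the E2F1 line than under serum at 6 h (0.51 ± 0.12, adjusted p = 0.00106), and at 12 h the difference was 0.06 with an interval from -0.18 to 0.30.

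Other p53 target genes, from a list of 75 of which 64 were measured, moved in both directions. In the E2F1 line 23 rose and 19 fell at 12 h, 15 rose and 13 fell at 6 h, and 2 rose and 4 fell at 2 h, where 61.5%, 51.7% and 1.86% of all genes were called. Their median log2 change was 0.04 at 12 h and -0.19 at 6 h, against -0.02 and -0.03 for all genes. As a difference from the EV line, 21 were higher and 14 lower at 12 h (median 0.02 against -0.02 for all genes, 50.5% called). At 6 h 12 were higher and 8 lower (median -0.20 against -0.03, 34.5% called), and at 2 h limma called none of the 64 (0.143% called). Tigar, a regulator of glycolytic flux, went from 98 and 91 at 0 h to 1244 and 994 at 6 h in the E2F1 line (3.54 ± 0.22, adjusted p = 4.13e-10). Gls2, the liver-type glutaminase, went from 117 and 169 to 1274 and 1420 at 6 h (3.25 ± 0.25, adjusted p = 5.69e-09). Pidd1, a scaffold of caspase-2 activation, went from 226 and 172 to 1592 and 1545 at 12 h (2.99 ± 0.25, adjusted p = 1.13e-08). These 3 changes were all larger than any of the 10 genes showed in the E2F1 line. Among the 8 targets lower as a difference from the EV line at 6 h were Fas (-1.38 ± 0.37, limma adjusted p = 0.00788) and Rrm2b (-0.74 ± 0.16, adjusted p = 0.00162). Among the 14 lower at 12 h were Abhd4 (-1.35 ± 0.16, adjusted p = 1.65e-06) and Steap3 (-1.17 ± 0.17, adjusted p = 1.65e-05).

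Cdkn1a, which encodes the arrest factor p21, rose most of these targets in the E2F1 line at 2 h, at 4621 and 5344 against 3066 and 2954 (0.72 ± 0.10, adjusted p = 0.00123). Cdkn1a rose in the EV line at 2 h as well (0.50 ± 0.10, adjusted p = 0.00715), and the difference between the lines did not pass (0.22 ± 0.15, adjusted p = 0.817). Thbs1, which encodes the matrix protein thrombospondin 1, stood at 10896 and 8144 at 12 h in the E2F1 line, against 20419 and 29696 at 0 h (-1.39 ± 0.29, limma adjusted p = 0.000505). It was already at 9932 and 11514 at 2 h (-1.20 ± 0.29, adjusted p = 0.0413), where E2f1 was not raised. Its difference from the EV line is not given here. Under serum 26 of the 64 rose and 25 fell at 2 h, 23 rose and 27 fell at 6 h, and 26 rose and 21 fell at 12 h, where 70.9%, 67.5% and 65.7% of all genes were called. Lif, a cytokine, went from 62 and 73 at 0 h to 13633 and 11103 with 2 h of serum (7.49 ± 0.59, adjusted p = 2.29e-09). Under doxycycline in the EV line 6 rose and 1 fell at 2 h, none passed at 6 h and 3 fell at 12 h. Of all genes, 7.35%, 0.134% and 4.17% were called there. The EV 2 h doxycycline libraries are those that carry raised counts of genes of the E2F1 line.

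Of 34 regulators of p53 and relatives of the 10 genes, 30 were measured. At 12 h of E2F1 induction 10 rose and 11 fell and at 6 h 12 rose and 10 fell, where 61.5% and 51.7% of all genes were called. Under serum 9, 7 and 8 rose and 13, 13 and 15 fell at 2, 6 and 12 h, where 70.9%, 67.5% and 65.7% were called. Ccng2, the relative of Ccng1, moved the other way from it in the E2F1 line at 12 h, at 852 and 947 against 1896 and 1754 (-1.02 ± 0.23, adjusted p = 0.000815). At 6 h it stood at 617 and 768 (-1.40, adjusted p = 5.55e-05), and serum brought it from 2442 and 2159 to 113 and 209 at 2 h (-3.89, adjusted p = 4.13e-11). Sesn3, a sestrin like Sesn1, fell in the E2F1 line at 6 h by 0.76 (7059 and 6823 against 11966 and 11530, adjusted p = 0.000216), and it fell in the EV line at 2 h by 0.72 (10588 and 10496 against 17131 and 17594, adjusted p = 0.0052). Trp63, the p53 family member p63, fell in the E2F1 line from 345 and 394 at 0 h to 74 and 89 at 2 h (-2.17, adjusted p = 0.00215) and stood at 163 and 176 at 6 h (-1.12, adjusted p = 0.00898). In the EV line Trp63 fell from 160 and 191 to 70 and 42 with 2 h of doxycycline (-1.67, adjusted p = 0.00553) and to 15 and 13 with 2 h of serum (-3.55, adjusted p = 2.09e-08). Its change did not differ between the lines past the threshold at 2 h (-0.50, adjusted p = 0.897) or 6 h (-0.31, adjusted p = 0.643).

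Across the 11 group means the 10 genes did not follow 1 pattern, and these coefficients describe groups that share lines and 0 h libraries. Pearson's r over the 11 groups was 0.895 between Trp53inp1 and Sesn1 and -0.934 between Sesn1 and Aen. It was 0.797 between Mdm2 and Phlda3 and 0.766 between Phlda3 and Btg2, but 0.223 between Trp53 and Mdm2. Among all genes those closest in pattern to Trp53 were Ubr7 (r = 0.981), Mmgt2 (0.98) and Ncapd3 (0.975). Closest to Mdm2 were Arf5 (0.925), Nin (0.921) and Pknox1 (0.898), and closest to Ccng1 were Vps45 (0.928), Dhx16 (0.914) and Srbd1 (0.91), so no other of the 10 genes was among the nearest 3 of any of these.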

How the data were processed

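Libraries of polyadenylated RNA were read from both ends at 150 bp (per the labels' protocols). FastQC, Trimmomatic, HISAT2, featureCounts, DESeq2 and the build mm10 are named in the submitters' processing notes, and the use of strand is not given in the sources used here. The table the authors deposited holds normalized counts, scaled and rounded by them, which were treated as a score and not as raw counts, so no count model was run. Further tables hold each gene's log2 fold change against 0 h and its adjusted p-value as the authors deposited them, for genes past an absolute log2 change of about 2.

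The test was limma 3.58.1 (R 4.3.3) applied to log2(value + 1). Fold changes are on this scale, which understates those of low genes. A model with a mean for each of 11 groups was fitted to all 22 libraries (11 residual degrees of freedom, empirical Bayes with a mean-variance trend). Benjamini-Hochberg adjustment ran over all 11208 genes in each comparison, and an adjusted p of at most 0.05 was called. The filter, a value of at least 10 in 2 libraries, removed no gene. Groups came from the labels. These do not say that replicates were separate cultures, so p-values measure the spread between these libraries, which may be technical. Replicates differed by at least 2.88 times counting noise, so none was counted as a repeat of another.

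The 10 genes, the pathway lists and the tests were chosen with earlier results of these data known. All 10 genes are named in each comparison. From the other lists, pooled, up to 3 rises and 3 falls of largest change in a comparison qualified, if called and if the higher of the group means reached 50, and some of these are described. The genes closest in pattern are the 3 of highest Pearson r over the group means, for Trp53, Mdm2 and Ccng1. Gene positions follow GENCODE M21 on GRCm38, and 10977 of 11208 identifiers had the same version there. Promoters are from RefSeq (GRCm38.p6). Alternatives were a pseudocount of 8, a mean of at least 500, no filter, quantile normalization, equal totals, only the groups compared, a replicate block, a change of at least 2-fold, groups compared directly at the same time and leaving out each library. Leaving out the 2 h doxycycline libraries was chosen after seeing the data. The code was tested on simulated data. Tables and figures were made in Python 3.11.15 with pandas 2.3.3, numpy 2.4.6 and matplotlib 3.10.9.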

Additional observations from a re-analysis of the deposited data

Results flagged for a closer look

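The difference between 2 changes passed limma for 25 pairs of gene and time, whose changes were not alike in the E2F1 line and in the EV line. Of all genes, 0.143%, 34.5% and 50.5% were called against EV doxycycline at 2, 6 and 12 h. The shares against serum were 56.7%, 57.9% and 48.8%, so such calls were common in the whole table. Against EV doxycycline the difference of log2 changes was 0.48 for Trp53 at 6 h. At 12 h it was 0.88 for Ei24, 0.60 for Ccng1, 0.57 for Trp53, 0.56 for Mdm2 and 0.48 for Aen, all higher in the E2F1 line.

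Against serum at 2 h it was -2.87 for Btg2, -2.14 for Aen and -1.20 for Phlda3, higher under serum. It was 2.89 for Trp53inp1, 2.81 for Sesn1 and 0.55 for Ccng1, higher in the E2F1 line. These 6 values rest on the 2 h doxycycline libraries of the E2F1 line and on the EV serum 2 h libraries. In the latter Ddx3y was raised too (132 and 170, against 9 and 4 at EV 0 h). At 6 h it was -2.10 for Aen, -0.80 for Zmat3, -0.50 for Phlda3 and -0.39 for Ccng1, and 2.41 for Trp53inp1, 1.58 for Sesn1 and 0.51 for Trp53. At 12 h it was -1.36 for Aen, and 2.35 for Trp53inp1, 0.83 for Sesn1, 0.62 for Mdm2, 0.54 for Ei24 and 0.45 for Ccng1.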

How the results depend on the processing

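Of 190 results (10 genes in 19 comparisons) 83 were called, 52 of them under every alternative other than the 2-fold limit. The other 31 lost the call under at least 1, and none of the 83 changed sign, while 25 results that were not called became so. The 2-fold limit left 0 genes for E2F1 at 2, 6 and 12 h and from 6 to 12 h, EV doxycycline at 2 h, E2F1 minus EV at 6 and 12 h, the lines at 0 h and serum from 6 to 12 h. It left 5, 3 and 3 for serum at 2, 6 and 12 h, 3 and 2 for E2F1 minus serum at 6 and 12 h, and 2 for serum from 2 to 6 h. Quantile normalization gave 6 for E2F1 at 6 h (1 higher, 5 lower), 2 for E2F1 minus EV at 6 h (both lower, Ccng1 and Zmat3) and 4 for serum from 6 to 12 h, and equal totals gave 2 for E2F1 minus EV at 6 h. These scalings moved the median of all genes by up to -0.37. Fitting only the groups compared gave 1 for EV doxycycline at 2 h and 2 for the lines at 0 h. Levels set directly side by side gave 5 and 9 for E2F1 against EV at 6 and 12 h and 10 for E2F1 against serum at 2 h. At 12 h the comparison with EV called 69.2% of all genes. For the other settings the share of all genes is not given here, so those counts describe the 10 genes alone. Signs turned, with a call, for Trp53 (-0.26) and Ccng1 (-0.29) under serum at 6 h with quantile normalization. With levels side by side they turned for Ei24 under serum at 2 h (0.24), Aen (0.37) and Phlda3 (0.39) in E2F1 against EV at 6 h, Ei24 (-0.22) and Zmat3 (0.39) in E2F1 against serum at 2 h, and Zmat3 at 12 h (0.31). Beyond what these settings' construction gives, the cause was not tested.

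Leaving out 1 library gave 0 to 1, 1 to 4 and 5 genes for E2F1 at 2, 6 and 12 h, 0 to 2, 0 and 0 for EV doxycycline, 7 to 8, 6 to 7 and 4 to 5 for serum, 0, 1 to 2 and 4 to 6 for E2F1 minus EV, and 6, 6 to 8 and 5 to 7 for E2F1 minus serum. It gave 1 to 3 for the lines at 0 h, 3 to 6 for E2F1 from 6 to 12 h, 7 to 8 for serum from 2 to 6 h and 4 to 5 from 6 to 12 h. The lone library of a group is then assumed to vary like the other groups. Without the 2 h doxycycline libraries, the calls lost in the comparisons that do not use them were Ei24 between the lines at 0 h (-0.23, adjusted p = 0.0687) and Aen under serum from 6 to 12 h (-0.31, adjusted p = 0.06).

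The replicate block lost 0 and gained 0 calls, for example 1 gene for E2F1 at 2 h, where Btg2 stayed at -0.94 (adjusted p = 0.0302). Replicate 1 deviations correlated between groups from -0.28 to 0.46 over 55 pairs of groups, with a median of 0.03. This range cannot tell whether equal numbers mark a shared source in some groups, and the labels do not say. With 2 libraries a group, the spread between replicates and not depth limits the smaller changes, since replicates differed by 2.88 to 4.65 times counting noise.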
